A study of Arabidopsis thaliana with 32 samples.

Results

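The 9 genes described here write, keep or remove 5-methylcytosine in Arabidopsis DNA, and they were taken by name from the 33602 genes counted in each library. All 9 had reads and all 9 passed the filter on low counts in every fit of total expression. The DNA methyltransferases are MET1 (AT5G49160), CMT2 (AT4G19020) and CMT3 (AT1G69770). DDM1 (AT5G66750) is the chromatin remodeller that lets methyltransferases reach heterochromatin, and KYP (AT5G13960, also SUVH4) is the histone methyltransferase whose H3K9 mark recruits the chromomethylases CMT2 and CMT3. The DNA glycosylases, which cut out methylated cytosine, are DME (AT5G04560), ROS1 (AT2G36490), DML2 (AT3G10010) and DML3 (AT4G34060).

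Plants copy CG methylation after DNA replication through MET1, keep CHG methylation through CMT3 together with KYP, and keep part of CHH methylation through CMT2. The glycosylases begin base-excision repair that puts an unmethylated cytosine back. DME acts in the central cell, the mother cell of the endosperm, and its action there sets up many imprinted genes, whereas ROS1, DML2 and DML3 are best known from the plant body. The endosperm carries 2 maternal genomes and 1 paternal, and the embryo carries 1 of each.

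RNA was sequenced from endosperm and from embryo, separated by laser capture microdissection from seeds of controlled crosses; the plants grew in a growth room with 16 h of light and 8 h of dark. The standard set held Col x Col, C24 x C24, Col x C24 and C24 x Col seeds, with the mother named first. The CNS set used lines in which the nucleus of 1 accession sits in the cytoplasm of the other: C24(Col) carries a Col nucleus in C24 cytoplasm and Col(C24) a C24 nucleus in Col cytoplasm, as the organelle and nuclear allele reads of the hybrids show. Its seeds were C24(Col) selfed, Col(C24) selfed, hybrids with Col(C24) as the father, and Col(C24) x Col hybrids. The hybrids with Col(C24) as the father are uneven, since replicate 1 is labelled Col x Col(C24) and replicate 2 C24(Col) x Col(C24). Their mothers share a Col nucleus and differ in cytoplasm: the C24 share of chloroplast allele reads was 0.03% in replicate 1 and 99.88% in replicate 2 of the endosperm. Each of the 16 groups, a tissue of a cross, has 2 libraries. Seed stage, and how many seeds or plants stand behind a library, are not stated in the sources used here.

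Libraries held 8.64 to 54.3 M gene counts (median 28.0 M; M is 1e6), and the 16 hybrid libraries 1.42 to 6.19 M nuclear allele reads. The endosperm marker list (10 genes) summed to 1400 to 2910 counts per 1e6 (CPM) in endosperm and 61.8 to 192 in embryo. The embryo marker list (12 genes) summed to 198 to 506 CPM in endosperm and 1230 to 2480 in embryo, and the seed coat list (13 genes) to 106 to 505 CPM in endosperm and 26.2 to 59.0 in embryo. The embryo list in endosperm was mostly LEC1 (71.3% of the sum), which was itself called higher in endosperm than in embryo (209 against 144 CPM in the standard set, 268 against 186 in the CNS set). Without LEC1 the embryo markers summed to 54.9 to 187 CPM in endosperm and 1110 to 2200 in embryo, and PLT1, PLT2, STM, CUC2 and PIN4 had means below 1 CPM in endosperm. DRN had no read in standard endosperm. In each set 7 of the 10 endosperm markers were called higher in endosperm and 0 lower, and 1 had no read in endosperm. HDG3 alone made up 58.7% of the endosperm list's sum in endosperm. By these sums the labelled tissues carry their own markers, and endosperm also holds seed coat marker RNA. In bulk RNA such as this, fewer cells of a type and less RNA per cell cannot be told apart. Levels below are in CPM after TMM scaling. They are given per kb of exon where genes are compared with each other.

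DDM1 and ROS1 were the members with the largest falls from embryo to endosperm in the standard crosses, and DML3 was the member that rose. The 250 bases before the annotated start of these genes are shown because DDM1 and ROS1 are the only 2 of the 9 members whose window holds a match to the E2F-type motif, which is common before genes of DNA replication. The motif searched on both strands was TT, 2 bases that are each C or G, CG, and 2 more bases that are each C or G. Capitals mark the matches, which begin 32 bases before the start of DDM1 and 29 bases before that of ROS1. In ROS1 a match on the other strand overlaps the first, so its capitals cover both. DML3 had no match. The sequences were read 5′ to 3′ on the strand of the gene from the RefSeq TAIR10 genome, at chr5:26648647-26648896 (plus strand), chr2:15314808-15315057 (minus strand) and chr4:16313116-16313365 (plus strand).
DDM1: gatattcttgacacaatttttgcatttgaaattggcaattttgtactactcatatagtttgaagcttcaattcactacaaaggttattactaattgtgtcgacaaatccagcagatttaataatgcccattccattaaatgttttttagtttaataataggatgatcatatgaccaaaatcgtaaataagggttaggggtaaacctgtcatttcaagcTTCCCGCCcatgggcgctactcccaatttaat
ROS1: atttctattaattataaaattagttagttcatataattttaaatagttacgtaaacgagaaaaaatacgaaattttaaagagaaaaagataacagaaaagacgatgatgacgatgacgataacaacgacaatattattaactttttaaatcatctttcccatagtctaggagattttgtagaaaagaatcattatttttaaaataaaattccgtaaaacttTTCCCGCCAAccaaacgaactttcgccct
DML3: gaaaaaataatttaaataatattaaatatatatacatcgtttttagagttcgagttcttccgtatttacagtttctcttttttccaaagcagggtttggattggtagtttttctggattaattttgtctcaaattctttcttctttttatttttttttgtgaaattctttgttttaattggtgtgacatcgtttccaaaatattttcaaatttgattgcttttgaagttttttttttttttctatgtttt
The motif lay in the window of 2 of 9 members (22.2%), 6 of 13 listed DNA replication genes (46.2%) and 755 of 27438 protein-coding nuclear genes (2.8%). A match is a string of letters and was not tested for binding.

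The members are spread over all 5 nuclear chromosomes of TAIR10. CMT3 lies at chr1:26248118-26253687 (minus strand), ROS1 at chr2:15307907-15314807 (minus), DML2 at chr3:3081735-3088550 (minus), CMT2 at chr4:10414428-10421265 (plus) and DML3 at chr4:16313366-16319426 (plus). Chromosome 5 holds DME at chr5:1309099-1318520, KYP at chr5:4501362-4506250, MET1 at chr5:19932114-19938470 and DDM1 at chr5:26648897-26653191, all on the plus strand. Their exons sum to between 2.55 kb for KYP and 7.19 kb for DME.

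Ranked by level per kb of exon in endosperm, CMT3 stood highest at 35.6 ± 7.81 CPM per kb (SD, n = 16) and DML3 lowest at 2.24 ± 1.35. Between them KYP, DML2, CMT2, ROS1, DDM1, MET1 and DME ran from 19.8 down to 9.49 CPM per kb, and no neighbours in that order differed by more than the larger of their SDs. In embryo the order per kb opened with CMT3 at 50.3 ± 4.21, DDM1 at 38.0 ± 4.35 and ROS1 at 27.7 (n = 16), each step larger than the SDs on either side. It closed with CMT2 at 17.8, DME at 7.5 and DML3 at 0.0506 CPM per kb, also in steps beyond the spread. MET1, DML2 and KYP lay between, at 24.7, 22.1 and 20.3 CPM per kb. DDM1 thus ranked sixth of 9 in endosperm and second in embryo.

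**Figure D1:**
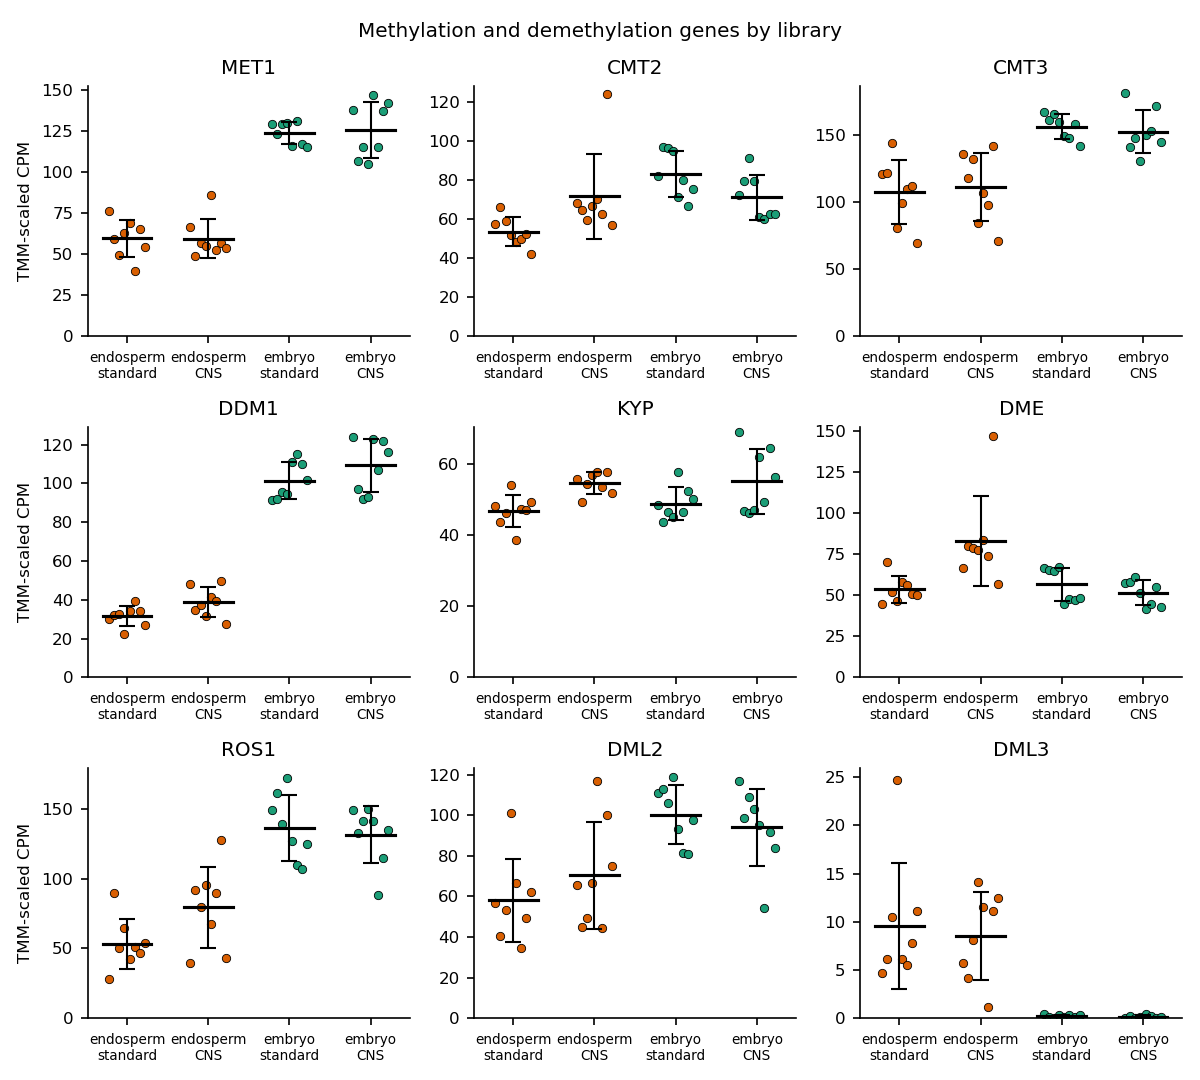
Level of each member in CPM (vertical axis, linear, from 0) in the 8 libraries of each tissue and set (points). For MET1, DDM1 and DML3 the points of endosperm and embryo do not overlap in either set; the KYP points lie between 38.5 and 68.8 CPM in all 32 libraries.

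How the tissues differ was asked of each set separately, with edgeR's quasi-likelihood test and Benjamini-Hochberg adjustment over all genes tested; a member is called when adjusted p is under 0.05. In the standard crosses 6 of 9 members were lower in endosperm than in embryo, 1 was higher and 2 were not called. In the CNS crosses 4 were lower, 2 higher and 3 not called. The tissues differ in most genes: 78.8% of the genes tested were called in the standard crosses and 68.7% in the CNS crosses, so the members' counts of 7 and 6 of 9 lie near the background. The median difference over the members was -0.56 and -0.38 on the log2 scale, beside 0.0 and 0.05 over all genes tested.

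Among the 5 members that write or keep methylation, DDM1 had the widest gap. Its level ran from 22.3 to 39.3 CPM (median 32.3) in standard endosperm and from 91.4 to 115 CPM (median 99.0) in standard embryo. In the CNS crosses it ran from 27.6 to 49.9 (median 38.3) and from 92.0 to 124 (median 111). Every endosperm library lay below every embryo library. The log2 difference, endosperm minus embryo, was -1.62 ± 0.10 (SE, adjusted p = 2.4e-09) in the standard set and -1.44 ± 0.11 (adjusted p = 3.4e-07) in the CNS set.

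MET1, the CG maintenance methyltransferase, also fell in endosperm. Standard endosperm held 39.9 to 76.4 CPM (median 60.9) and standard embryo 115 to 131 (median 126). CNS endosperm held 48.9 to 85.9 CPM (median 55.8) and CNS embryo 105 to 147 (median 126), so the tissues did not overlap in either set. The log2 differences were -1.0 ± 0.10 (adjusted p = 8.1e-07) and -1.02 ± 0.10 (adjusted p = 2.2e-06).

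The chromomethylases differed less. CMT3 had 69.3 to 144 CPM (median 111) in standard endosperm and 142 to 167 (median 159) in standard embryo, with 71.2 to 142 (median 113) and 131 to 181 (median 149) in the CNS set. The ranges overlap in both sets, and the log2 differences of -0.50 ± 0.09 (adjusted p = 0.00017) and -0.41 ± 0.10 (adjusted p = 0.0038) were called. CMT2 lay at 41.9 to 66.3 CPM (median 52.4) in standard endosperm, below the 66.5 to 96.7 CPM (median 80.9) of standard embryo, and fell by 0.56 ± 0.11 on the log2 scale (adjusted p = 0.00038). In the CNS crosses CMT2 ranged from 56.8 to 124 CPM (median 65.6) in endosperm and from 60 to 91.1 (median 67.4) in embryo, with a log2 difference of 0.06 ± 0.15 (adjusted p = 0.74).

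KYP, the histone methyltransferase, was not called. Its medians were 47.1 CPM in endosperm and 47.4 CPM in embryo of the standard set, and 54.9 and 52.8 CPM in the CNS set. The log2 differences were 0.01 ± 0.08 (adjusted p = 0.92) and 0.06 ± 0.10 (adjusted p = 0.59). KYP overlaps the neighbouring gene AT5G13970 by 60 bases on the opposite strand, and the sources used here do not say whether reads were counted by strand.

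The glycosylases went different ways. ROS1 was lower in endosperm, at 28.3 to 89.7 CPM (median 50.9) against 107 to 172 (median 133) in standard embryo, a log2 difference of -1.32 ± 0.15 (adjusted p = 1.9e-06). In the CNS set it had 39.4 to 128 CPM (median 84.7) against 88.5 to 150 (median 138), and the difference was -0.70 ± 0.18 (adjusted p = 0.0047). The ROS1 ranges of the tissues were apart in the standard set and overlapped in the CNS set. DML2 had 34.7 to 101 CPM (median 55.1) in standard endosperm and 80.7 to 119 (median 102) in standard embryo, and fell by 0.77 ± 0.12 on the log2 scale (adjusted p = 5.1e-05). In the CNS set DML2 had 44.7 to 117 CPM (median 66.2) and 54.1 to 117 (median 96.7), and the difference of -0.38 ± 0.17 was not called (adjusted p = 0.069). It was called without selfed C24(Col) endosperm replicate 2 (-0.50, adjusted p = 0.024), the C24(Col) x Col(C24) endosperm (-0.53, adjusted p = 0.013) or selfed Col(C24) embryo replicate 2 (-0.50, adjusted p = 0.032).

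DML3 was an endosperm transcript at a low level. It had 4.7 to 24.7 CPM (median 6.98) in standard endosperm and 0.0553 to 0.401 (median 0.242) in standard embryo, and 1.18 to 14.1 (median 9.58) against 0.0 to 0.411 (median 0.151) in the CNS set. Every embryo library lay below every endosperm library. The nearest were selfed C24(Col) embryo replicate 2 (0.411 CPM, 16 reads) and selfed Col(C24) endosperm replicate 2 (1.18 CPM, 39 reads). The fitted log2 differences were 5.24 ± 0.30 (adjusted p = 1.4e-09) and 5.90 ± 0.53 (adjusted p = 1.3e-06), values that rest on few embryo reads. Seed coat markers also stood higher in endosperm libraries, with 10 of 13 called higher in the standard set and 9 of 13 in the CNS set. Their part in the DML3 result was not tested.

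DME, the glycosylase of the central cell, had 44.4 to 70.0 CPM (median 51.4) in standard endosperm and 44.8 to 67.0 (median 56.6) in standard embryo, a log2 difference of -0.01 ± 0.13 (adjusted p = 0.95). In the CNS crosses it was higher in endosperm, at 56.8 to 147 CPM (median 78.1) against 41.5 to 61.0 (median 53.0), with a log2 difference of 0.73 ± 0.14 (adjusted p = 0.0006). The highest value came from the C24(Col) x Col(C24) library, and without it the difference was 0.61 and still called. Whether the tissue difference itself depends on the set was tested over all 32 libraries. The sets differ in the cytoplasm of their lines and also in depth. Libraries held 8.64 to 33.88 M gene counts in the standard and 24.55 to 54.29 M in the CNS set. These differences between the sets cannot be told apart here. None of the 9 members was called (3 at an unadjusted p under 0.05: ROS1, CMT2 and DME), and neither was any other gene, 0.0% of 22254 (1433 at an unadjusted p under 0.05; DESeq2 called 72 genes and no member). For DME the difference between the sets was -0.75 ± 0.20 (adjusted p = 0.38).

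**Figure D2:**
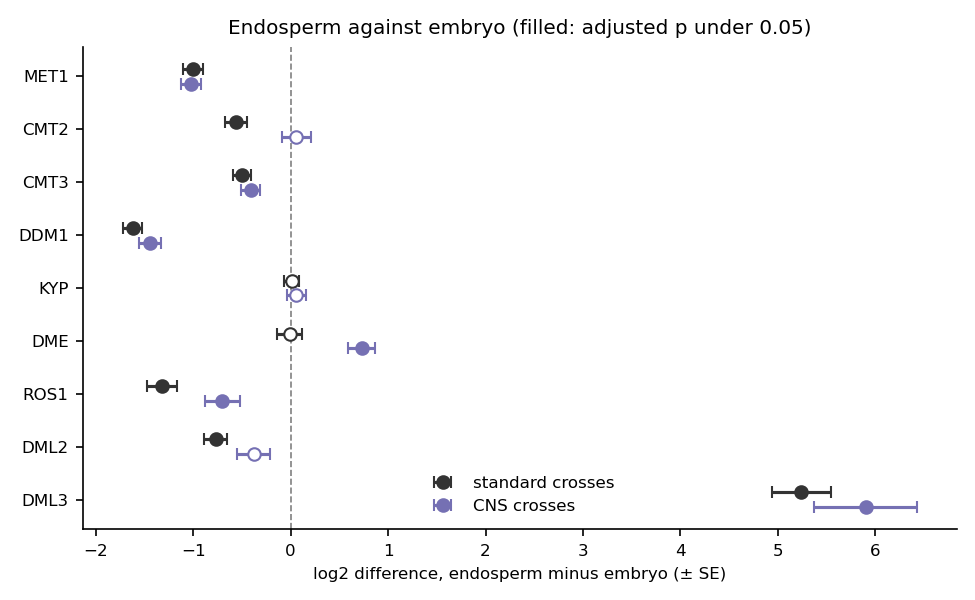
Log2 difference of each member, endosperm minus embryo, with its SE, in the standard and the CNS crosses (filled points: adjusted p under 0.05). DML3 lies far to the right of 0 at 5.24 and 5.90, DDM1 at -1.62 and -1.44, and KYP at 0.01 and 0.06.

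The other listed genes of the pathway were described by the same fits. Of 13 other genes of methylation, 5 rose in endosperm of the standard crosses, 5 fell and 3 were not called, and in the CNS crosses 6 rose, 5 fell and 2 were not called. The relatives of MET1 went the other way from MET1: MET2B (30.1 against 2.64 CPM, log2 difference 3.69 ± 0.14) and MET2A (45.4 against 5.72 CPM, 3.08 ± 0.18) rose in the standard crosses, and by 4.40 and 4.18 in the CNS crosses. MET3, the remaining relative, was called higher at a very low level, 2.08 against 1.02 CPM in the standard set (adjusted p = 0.00028) and 1.61 against 0.277 CPM in the CNS set (adjusted p = 0.0033). VIM1, whose product binds hemimethylated DNA for MET1, fell from 270 CPM in embryo to 35.2 in endosperm (-2.88 ± 0.15), and by 3.00 ± 0.17 in the CNS set. Its relatives did not all fall. VIM2 had a mean of 11.2 CPM in embryo and 38.9 in endosperm of the standard set, and 11.1 and 40.3 in the CNS set. VIM3 had 58.8 and 26.2 CPM in the standard set, and 70.4 and 30.0 in the CNS set. For MET2A, MET2B and VIM1 adjusted p was at most 2e-09 in the standard and 2.7e-07 in the CNS crosses. The MET2 and VIM genes are families of close copies, so reads may be split between members and single values are uncertain.

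Of 10 genes that work with the glycosylases, 4 rose, 4 fell and 2 were not called in the standard crosses, and 3 rose and 4 fell in the CNS crosses. IDM1, a histone acetyltransferase needed for demethylation by ROS1 at some loci, fell from 51.8 to 3.01 CPM (log2 difference -4.03 ± 0.15) and in the CNS set from 50.5 to 4.67 CPM (-3.43 ± 0.16). IDM2, an alpha-crystallin protein of the same complex, fell by 2.56 ± 0.16 and 2.42 ± 0.14. For these, adjusted p was at most 3.7e-09 in the standard and 5.1e-08 in the CNS crosses.

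Genes of DNA replication are given because MET1 works on newly copied DNA. Of 13, 12 fell in endosperm and 1, CDC6, rose in the standard crosses, and in the CNS crosses 11 fell and 1 rose. Their summed level was 447 to 773 CPM in endosperm and 1340 to 1870 CPM in embryo. Their median log2 difference was -1.26 in the standard set, beside -1.62 for DDM1 and -1.0 for MET1. What part of the DDM1 and MET1 differences goes with replication was not tested.

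The makeup of the glycosylase family is easier to see as shares of its summed level per kb. In embryo it was nearly constant: ROS1 made up 48.3 ± 1.96%, DML2 38.4 ± 1.78%, DME 13.2 ± 1.63% and DML3 0.0912 ± 0.0626% (SD, n = 16). In endosperm DML2 made up 36.8 ± 9.25%, ROS1 33.9 ± 8.68%, DME 23.7 ± 3.87% and DML3 5.58 ± 2.76%. The SD of the ROS1 share was thus several times larger in endosperm. The family summed to 40.1 ± 11.8 CPM per kb in endosperm and 57.4 ± 8.98 in embryo. Among the methyltransferases CMT3 held most of the summed level per kb in both tissues, 57.3 ± 5.3% in endosperm and 54.2 ± 2.08% in embryo. MET1 held 19.4 ± 4.13% and 26.6 ± 2.15%, and CMT2 23.3 ± 3.91% and 19.2 ± 2.87%.

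Within endosperm the ROS1 share followed the nucleus of the selfed seeds. It was 22.4% and 26.4% in Col x Col and 24.2% and 25.4% in selfed C24(Col), the seeds with Col nuclei. With C24 nuclei it was 47.6% and 38.3% in C24 x C24 and 46.1% and 47.3% in selfed Col(C24), all above the seeds with Col nuclei. These are shares within a library, so a higher share of 1 gene lowers the others. Embryo libraries of these crosses lay between 47.1% and 51.4% with either nucleus.

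**Figure D3:**
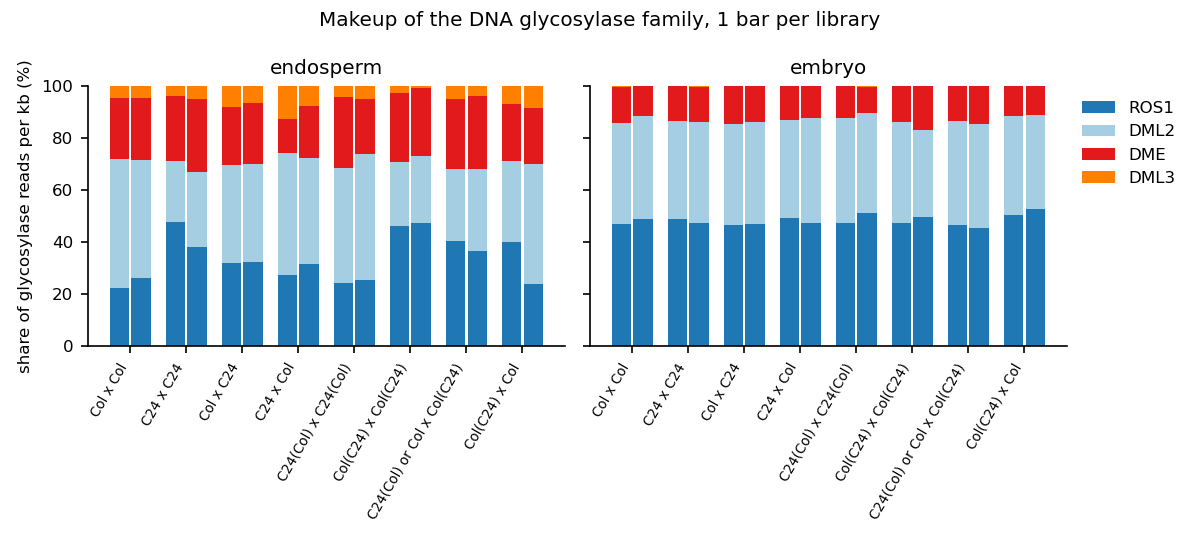
Share of each DNA glycosylase in the summed level per kb of the family (vertical axis, percent, 1 stacked bar per library) in endosperm and embryo. Embryo bars look alike, with ROS1 at 48.3 ± 1.96%; in endosperm of selfed seeds the ROS1 part is 22.4% to 26.4% with Col nuclei and 38.3% to 47.6% with C24 nuclei.

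Selfed seeds with Col and with C24 nuclei were compared to see which members follow the nuclear genome, averaging the standard and the CNS set so that either nucleus was measured in either cytoplasm. In endosperm 3 of 9 members were called, beside 20.8% of all genes tested. DML2 and MET1 were higher with Col nuclei and ROS1 was higher with C24 nuclei.

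ROS1 had 28.3 and 42.7 CPM in Col x Col and 39.4 and 67.4 CPM in selfed C24(Col). With C24 nuclei it had 89.7 and 51.3 CPM in C24 x C24 and 92.1 and 89.7 CPM in selfed Col(C24). Of the 4 libraries with C24 nuclei 3 lay above all 4 with Col nuclei, and C24 x C24 replicate 2 lay among them. The log2 difference, Col minus C24 nucleus, was -0.88 ± 0.28 (adjusted p = 0.036, means 44.4 and 80.7 CPM).

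DML2 had 56.8 and 66.4 CPM in Col x Col and 65.6 and 117 CPM in selfed C24(Col). With C24 nuclei it had 40.4 and 34.7 CPM in C24 x C24 and 44.8 and 44.7 CPM in selfed Col(C24). The groups did not overlap, and the log2 difference was 0.87 ± 0.24 (adjusted p = 0.02).

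MET1 had 76.4 and 69.0 CPM in Col x Col and 66.4 and 85.9 CPM in selfed C24(Col), all above the 59.2 and 39.9 CPM of C24 x C24 and the 48.9 and 52.7 CPM of selfed Col(C24). The log2 difference was 0.56 ± 0.16 (adjusted p = 0.025). The other 6 members were not called, among them DML3 at 0.78 ± 0.39 (adjusted p = 0.17), an average over sets that gave -0.10 and 1.66. CMT2, CMT3, DDM1 and KYP differed by between -0.01 and 0.06 on the log2 scale, and DME by -0.18 ± 0.20 (adjusted p = 0.58).

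Each of these calls hangs on single libraries. ROS1 was not called after leaving out Col x Col replicate 1, C24 x C24 replicate 1, selfed C24(Col) replicate 1 or either selfed Col(C24) replicate (log2 difference -1.11 to -0.67 over all alternatives, adjusted p 0.0001 to 0.16). DML2 was lost without Col x Col replicate 2, either C24 x C24 replicate or selfed C24(Col) replicate 2 (0.62 to 1.06, adjusted p 0.00022 to 0.1). MET1 was lost when only the libraries compared were fitted (adjusted p = 0.056) and without Col x Col replicate 1, C24 x C24 replicate 2, selfed Col(C24) replicate 1 or selfed C24(Col) replicate 2 (0.34 to 0.71, adjusted p 0.0082 to 0.17). Scaling by library totals in place of TMM moved the median of all genes from -0.04 to -0.26 and lost DML2 (0.64, adjusted p = 0.053) and MET1 (0.34, adjusted p = 0.17). The endosperm marker sum also stood apart in these groups, at 1880 to 2910 CPM with Col nuclei and 1520 to 1760 CPM with C24 nuclei; HDG3 alone makes up 58.7% of this sum in endosperm. The replication sum was 643 to 773 and 447 to 723 CPM, and the embryo markers without LEC1 summed to 75.9 to 112 and 96.0 to 149 CPM. Their part in the nucleus differences was not tested.

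Taken set by set, no member was called in endosperm. For Col x Col against C24 x C24 3 members had an unadjusted p under 0.05 (ROS1, DML2 and MET1), DESeq2 called none, and 7.96% of genes were called. For selfed C24(Col) against selfed Col(C24) 3 members had an unadjusted p under 0.05 (DML2, DML3 and MET1), DESeq2 called 2, and 7.9% of genes were called. There DML3 differed by 1.66 ± 0.55 (adjusted p = 0.079; 8.61 against 2.67 CPM), while in the standard set it differed by -0.10 ± 0.55 (adjusted p = 0.95; 5.42 against 5.86 CPM). DML2 differed in the CNS set by 1.00 ± 0.34 (adjusted p = 0.086), and with the replicate number as a block by 0.93 (adjusted p = 0.032). Between the sets the nucleus difference was not called for any member (lowest adjusted p = 1.0, DML3 alone at an unadjusted p under 0.05, with -1.76 ± 0.77, none by DESeq2, 0.00471% of genes called).

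In embryo no member was called for the nucleus, beside 10.9% of genes. KYP alone had an unadjusted p under 0.05, DESeq2 called none, and KYP differed by 0.28 ± 0.13 (adjusted p = 0.18; 59.2 against 46.5 CPM). With the replicate block KYP was called, at 0.29 (adjusted p = 0.046). ROS1 differed there by 0.16 ± 0.17 and DML2 by 0.22 ± 0.18. By set, no member was called for the standard selfed embryos (4.04% of genes called, no member at an unadjusted p under 0.05) or the CNS selfed embryos (4.51% of genes called, KYP alone at an unadjusted p under 0.05), and DESeq2 called none in either. In the CNS embryos DML2 had a log2 difference of 0.44 (adjusted p = 0.43), which the replicate block called at 0.47 (adjusted p = 0.031). For nucleus by set in embryo 0.0351% of genes and no member were called, with no member at an unadjusted p under 0.05 and none called by DESeq2.

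Whether the nucleus difference itself depends on tissue was tested after the values were seen. No member was called, 2 had an unadjusted p under 0.05, DESeq2 called none, and 4.17% of genes were called. ROS1 came closest with a difference of -1.09 ± 0.36 between the tissues (adjusted p = 0.09), ahead of MET1 at 0.41 ± 0.20 (adjusted p = 0.27) and DML2 at 0.60 ± 0.33 (adjusted p = 0.35). Among the other listed genes in endosperm, VIM2 rose with Col nuclei by 0.84 ± 0.19, and CDC45, a replication factor (-0.84 ± 0.22), XRCC1, a repair protein that acts after the glycosylases (-0.79 ± 0.17), and DRM2, the methyltransferase of RNA-directed methylation (-0.71 ± 0.23), fell. In embryo VIM2 was higher with Col nuclei (20.2 against 4.10 CPM, 2.25 ± 0.22), MET3 had 1.24 against 0.0 CPM, and CMT1 was lower (0.202 against 1.56 CPM). The reference allele is Col, and the part of read mapping in the nucleus differences was not tested.

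**Figure D4:**
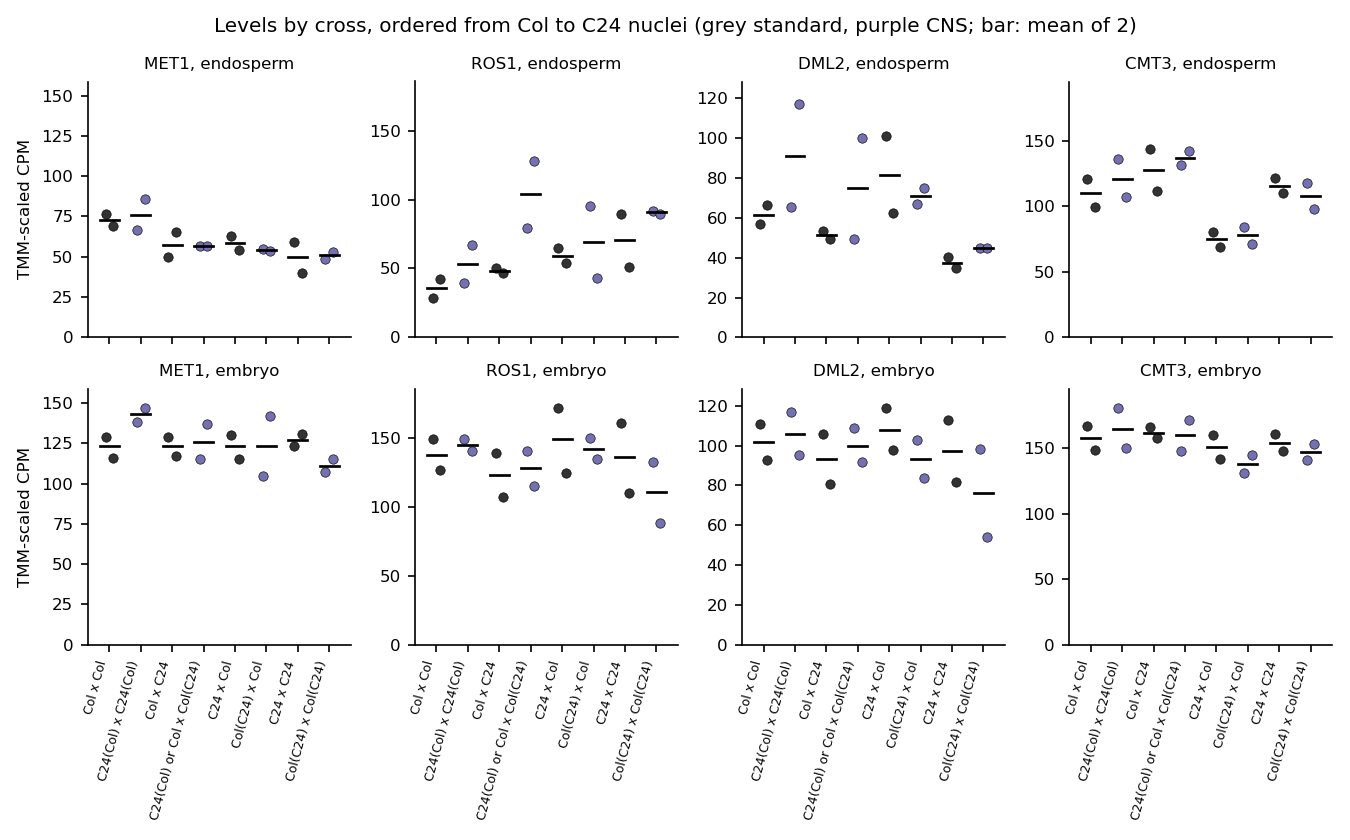
Level in CPM (vertical axes, linear, from 0; points: libraries, bars: mean of 2) of MET1, ROS1, DML2 and CMT3 in the 8 crosses of each tissue, ordered from Col to C24 nuclei, grey for standard and purple for CNS crosses. In endosperm ROS1 lies between 28.3 and 67.4 CPM in selfed seeds with Col nuclei and between 51.3 and 92.1 CPM in those with C24 nuclei.

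Reciprocal hybrids carry the same nuclear alleles and differ in which parent is the mother. In the standard set the cytoplasm changes with the mother. In CNS endosperm the C24 share of chloroplast allele reads was 0.03% with a Col-nucleus and 0.02% with a C24-nucleus mother in replicate 1. In replicate 2 it was 99.88% and 0.0%, so the cytoplasm contrast is uneven. Within each set no member was called in endosperm, beside 0.222% of genes in the standard and 0.325% in the CNS set. CMT3 came closest in both, as the 1 member with an unadjusted p under 0.05 in the standard set and 1 of 3 in the CNS set, with DME and DDM1. Standard endosperm had 144 and 112 CPM of CMT3 after Col x C24, against 80.6 and 69.3 after C24 x Col, a log2 difference of 0.74 ± 0.22 (adjusted p = 0.25). The CNS endosperm had 132 and 142 CPM with a Col-nucleus mother and 84.5 and 71.2 CPM with a C24-nucleus mother, a difference of 0.81 ± 0.22 (adjusted p = 0.14). The libraries of the directions did not overlap in either set. DESeq2 called CMT3 in both sets (adjusted p = 0.04 and 0.014) and no other member. In the CNS set the fit with a replicate block called it too (0.82, adjusted p = 0.028).

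Both sets together, an average chosen after these values were seen, gave a log2 difference in CMT3 of 0.77 ± 0.15 (adjusted p = 0.014), with 132 CPM for Col-nucleus mothers and 76.4 CPM for C24-nucleus mothers. CMT3 was the 1 member called of 9, beside 3.35% of genes. The call was lost without Col x C24 replicate 1 (0.69, adjusted p = 0.074), C24 x Col replicate 2 (0.72, adjusted p = 0.062) or Col(C24) x Col replicate 2 (0.73, adjusted p = 0.08). DDM1 differed by 0.48 ± 0.16 (adjusted p = 0.13). Selfed endosperm of both sets had 99.6 to 136 CPM of CMT3 with Col nuclei and 98.2 to 122 CPM with C24 nuclei. The hybrids with a C24-nucleus mother thus lay below every selfed library. The embryo markers without LEC1 summed to 54.9 to 187 CPM in the endosperm of hybrids with Col-nucleus mothers and 54.9 to 80.5 CPM with C24-nucleus mothers, and their part in this difference was not tested. SUVH5, a relative of KYP (-0.77 ± 0.20), and CDC6 (-0.95 ± 0.24) fell in the same comparison.

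In embryo no member was called between reciprocal hybrids, with no member at an unadjusted p under 0.05 and none called by DESeq2. The share of genes called was 0.00501% in the standard set and 0.0% in the CNS set (660 genes at an unadjusted p under 0.05, 15 called by DESeq2). Over both sets it was 0.0% (846 and 21 genes). CMT3 in embryo had 166 and 158 CPM after Col x C24, against 160 and 142 CPM after C24 x Col, and these ranges overlap.

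Hybrids were set against the mean of their selfed parents. In endosperm no member was called, beside 0.717% of genes in the standard and 0.698% in the CNS set. DML3 had the largest value in both, 1.18 ± 0.39 (adjusted p = 0.35) and 1.24 ± 0.38 (adjusted p = 0.26), and was the 1 member in each with an unadjusted p under 0.05. DESeq2 called no member. DML3 had 7.8 to 24.7 CPM in the 4 standard hybrid libraries and 4.7 to 6.16 CPM in the 4 selfed ones, which do not overlap. In the CNS set it had 8.11 to 14.1 CPM in hybrids and 1.18 to 11.5 CPM in selfed seeds, which do. In embryo 0.471% and 0.732% of genes were called and no member, none had an unadjusted p under 0.05, and DESeq2 called none.

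Allele reads of the hybrids gave the share that came from the mother. KYP had no allele reads, and DML3 had at most 13 in a library, so 7 members were tested for parent of origin, against 2:1 in endosperm and 1:1 in embryo. None was called in any set or tissue, beside 4.09% of genes in standard endosperm, 1.06% in standard embryo, 2.4% in CNS endosperm and 0.0613% in CNS embryo. At an unadjusted p under 0.05 there was 1 member, CMT3 in CNS endosperm (0.67 ± 0.27, adjusted p = 0.58). DESeq2 was not run on allele reads.

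Mean maternal shares in endosperm ran from 57.7 ± 12.1% for ROS1 to 68.0 ± 3.25% for CMT3 in the standard hybrids (SD, n = 4), where 2:1 is 66.7%. In the CNS hybrids they ran from 61.9 ± 22.3% for ROS1 to 75.4 ± 9.01% for CMT3 and 75.4 ± 20.9% for DME. In embryo they ran from 45.8 ± 12.7% for DME to 52.2 ± 7.44% for DML2, and from 50 ± 3.73% for DDM1 to 53.9 ± 5.24% for DME. DME RNA in endosperm came from both parents, with a maternal share of 67.9 ± 12.5% in the standard hybrids. By contrast, VIM1, VIM3 and IDM3, listed partners, were paternal in endosperm beyond the 2:1 ratio, with log2 differences, maternal minus paternal, of -2.58 ± 0.25, -2.38 ± 0.28 and -3.55 ± 0.65 in the standard set and -2.45 ± 0.41, -1.95 ± 0.46 and -3.26 ± 0.55 in the CNS set. The highest adjusted p among these was 0.0058 in the standard and 0.047 in the CNS set.

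Some single libraries departed far from 2:1 or 1:1. The test for a library far from the others, given below, flagged none of these shares. In Col(C24) x Col endosperm replicate 2 DME had 1 Col read and 174 C24 reads, a maternal share of 99.4% (exact 95% interval 96.9 to 100), while genes within 250000 bases had a median of 63.2%. Replicate 1 of the same cross had 40 and 126 reads, a share of 75.9%. DML2 in Col x C24 endosperm replicate 2 had 86 Col and 6 C24 reads, 93.5% maternal (86.3 to 97.6), beside 68.3% for its neighbours and 55.4% in replicate 1. ROS1 had 33.5% (28.6 to 38.7) in Col x Col(C24) endosperm and 87.2% (82.1 to 91.3) in Col(C24) x Col endosperm replicate 2. In embryo DME had 27.4% (20.1 to 35.7) in C24 x Col replicate 2, with 98 Col and 37 C24 reads, beside 47.4% for its neighbours. These intervals cover counting error only. In none of these libraries did the neighbouring genes share the departure in their median.

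The few DML3 allele reads of endosperm were mostly maternal. Col x C24 endosperm had 4 and 6 Col reads and no C24 read, C24 x Col endosperm had 5 Col and 8 C24 reads in replicate 1 and 0 and 3 in replicate 2, and Col(C24) x Col replicate 1 had 10 C24 reads and no Col read. The C24(Col) x Col(C24) endosperm had 9 Col reads and no C24 read. These counts are too small for a test. The seed coat is maternal tissue, and its 13 markers summed to 135 to 505 CPM in the endosperm of the hybrids; its part in the DML3 reads was not tested.

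**Figure D5:**
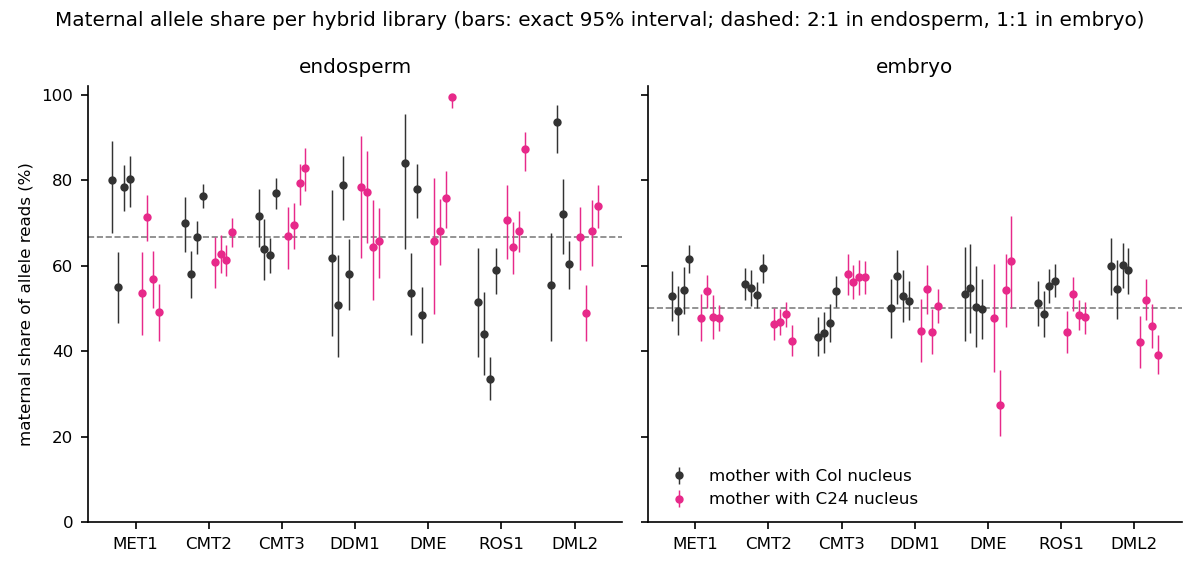
Maternal share of allele reads (vertical axis, percent) of 7 members in each hybrid library, with exact 95% intervals, in endosperm and embryo; dashed lines mark 2:1 and 1:1. Most endosperm points lie around 66.7% and most embryo points around 50%, and the highest endosperm point is DME at 99.4%.

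The same fit compared the Col with the C24 allele. In standard embryo 2 of 7 members were called, beside 17.3% of genes. CMT3 was higher from the C24 allele (-0.38 ± 0.11, adjusted p = 0.007) and CMT2 from the Col allele (0.25 ± 0.09, adjusted p = 0.042), where the median over all genes was 0.11 towards Col. CMT3 was lost without either Col x C24 replicate (adjusted p = 0.12 and 0.08) and CMT2 without any 1 of the 4 libraries. In CNS embryo 7.71% of genes and no member were called (2 members at an unadjusted p under 0.05), with CMT3 at -0.20 ± 0.13 (adjusted p = 0.46) and CMT2 at 0.31 ± 0.12 (adjusted p = 0.2). In endosperm no member was called, beside 12.5% of genes in the standard and 6.86% in the CNS set. There ROS1 had -0.59 ± 0.25 (adjusted p = 0.17) and -1.05 ± 0.36 (adjusted p = 0.12), with an unadjusted p under 0.05 in both. ROS1 in selfed endosperm was higher with C24 nuclei, and the hybrid alleles gave values of the same sign that did not pass the test.

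Replicates of embryo differed in a way that several members shared. Replicate 1 was above replicate 2 in all 4 crosses of both sets for CMT2, DME, ROS1 and DML2. DME in standard embryo had 64.6 to 67.0 CPM in replicate 1 and 44.8 to 48.5 CPM in replicate 2, with no overlap. DDM1 in the standard set was lower in replicate 1 in all 4 crosses of both tissues. The labels do not say what a replicate number marks.

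Across the 32 libraries, centred on the mean of each tissue and set, some members varied together; the points share libraries, depth and replicate effects, so the correlations are descriptions. CMT2 went with DME (Pearson r = 0.80), DME with ROS1 (0.68), CMT3 with DDM1 (0.65) and DML2 with DML3 (0.55). With the mean of the listed DNA replication genes r was 0.76 for MET1, -0.0 for DDM1 and -0.14 for ROS1. For the other members it lay between -0.22 (CMT2) and 0.29 (KYP). The genes most like MET1 were MSH6, which encodes a mismatch repair protein (0.81), and POLA2 (0.79), which encodes a DNA polymerase alpha subunit. The genes most like CMT3 were SMC3 as named in the reference table (AT5G48600, 0.84) and AT4G30150 (0.83), and those most like DDM1 were iqd8 (0.83) and AT1G07830 (0.82). For CMT2 they were AT1G48090 (0.84) and AT1G15290 (0.82), for KYP ABI5 and AT4G31640 (both 0.69), and for DME TCP2 (0.83) and AT1G73460 (0.82). ROS1 was most like AT3G20200 (0.84) and AT2G27090 (0.83), DML2 like NET1B (0.87) and GTE4 (0.86), and DML3 like AT5G19710 (0.84) and AT5G01290 (0.78).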

How the data were processed

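Each of the 32 libraries has a deposited table of raw read counts by gene, and the 16 hybrid libraries also have counts of reads assigned to the reference (Col) and the other (C24) allele. Microdissected tissue gave poly-A selected libraries (NEB Ultra II), per the labels' protocols. The submitters' processing notes name Trimmomatic, STAR, HTSeq, edgeR and the build TAIR10, with neither role nor version. The strand setting and the allele assignment step are not given in the sources used here. The 5 summary lines of each table were dropped before any library size was taken; reads with no feature made up 2.28% to 17.75% of all counts. Of 33602 gene identifiers 32835 matched the reference table.

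Counts were fitted with edgeR 4.0.16 (R 4.3.3, limma 3.58.1): TMM scaling, filterByExpr (minimum count 10), quasi-likelihood test, Benjamini-Hochberg over all genes tested, called under 0.05. Tissue fits used 16 libraries of a set, the test of tissue by set all 32, and the other fits 16 libraries of a tissue. Allele counts were fitted with library, allele and parent-of-origin terms, an offset of 2:1 in endosperm and 1:1 in embryo, and at least 10 allele reads per library. Shares carry exact (Clopper-Pearson) 95% intervals, which cover counting error only. Likeness used log2(CPM + 0.5). DESeq2 1.42.0, library totals, no filter, left-out replicates, fits of the compared groups alone and a replicate block were alternatives. The statistics were run on simulated counts with known changes, in which libraries were drawn independently. Those runs do not cover the correlated deviations between same-numbered libraries given below.

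The labels do not say that replicates came from separate plants, so p-values measure only the spread between libraries, which may be technical. Replicate numbers come from the sample titles. Deviations of same-numbered libraries correlated at 0.13 to 0.51 (standard) and 0.19 to 0.55 (CNS) in embryo. In endosperm they correlated at -0.09 to 0.3 (standard) and 0.18 to 0.3 (CNS). Between endosperm and embryo of the same cross the values were 0.12 to 0.36 (standard) and 0.13 to 0.26 (CNS). The main fits of total expression carried no replicate term, and the replicate block was run as an alternative. The members and gene lists were chosen with earlier results of these data known. Named genes are the members, of the other listed genes the 3 with the largest called rise and fall in a comparison, and for each member the 2 genes with the highest r. Levels of VIM2 and VIM3 by tissue are given beside VIM1 as its relatives. Comparisons within a set share libraries with each other. The embryo marker sum without LEC1 was added after the levels were seen.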

Additional observations from a re-analysis of the deposited data

Results flagged for a closer look

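Levels were tested in groups of 8 libraries, and maternal shares in groups of 4 hybrid libraries, for a library far from the others. Of 64 groups 4 stood out, all of them levels, and chance flags about 1 in 20 groups. In CNS endosperm MET1 was 85.9 CPM in selfed C24(Col) replicate 2, where the other 7 libraries ran from 48.9 to 66.4. CMT2 was 124 CPM in the C24(Col) x Col(C24) library, against 56.8 to 70.1 in the others, and DME was 147 CPM in that library, against 56.8 to 83.6. The same library had the highest ROS1 level of all endosperm libraries, 128 CPM, the highest embryo marker sum without LEC1, 187 CPM, and the highest share of reads without a feature, 17.75%. In standard endosperm DML3 was 24.7 CPM in C24 x Col replicate 1, against 4.7 to 11.1 in the others.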

How the results depend on the processing

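All 13 member calls between tissues held under each of the 20 alternatives run for them. Elsewhere single calls moved, and the cause was not tested. Without the filter on low counts, 1 member was called in selfed standard endosperm, 3 in selfed CNS endosperm and 1 in each hybrid comparison of endosperm, against 0. Over all genes the calls there rose from 1689 to 2786, from 1676 to 3051, from 152 to 694 (standard hybrids) and from 148 to 737 (CNS hybrids). DESeq2 called 2 members in selfed CNS endosperm and 1 in each reciprocal comparison of endosperm, against 0. Its calls over all genes were 2900 against 1676, 339 against 47 (standard reciprocal) and 620 against 69 (CNS reciprocal). Library totals left 1 of 3 nucleus calls in endosperm. A 1:1 offset in endosperm called 6 members (standard) and 5 (CNS) higher from the mother and turned the sign of CMT2 (0.76) and MET1 (0.89), since it drops the second maternal genome. With it 5638 of 8271 genes (standard) and 3766 of 9219 (CNS) were called higher from the mother, and the median over all genes was 1.03 in both. The replicate block called 1 member, against 0, in each of selfed CNS endosperm, reciprocal CNS endosperm, selfed CNS embryo and the nucleus comparison in embryo; it changed no other call. Over all genes it raised the calls from 1676 to 2849, from 69 to 499, from 900 to 2484 and from 2174 to 4544. Leaving out a replicate gave 6 to 7 calls between tissues in the CNS crosses, where DML2 joined in 3 fits, 0 to 2 calls in selfed CNS endosperm, 1 to 2 for the nucleus in endosperm, 0 to 1 for CNS hybrids and for both sets of reciprocal hybrids in endosperm, 0 to 1 for parent of origin and for the Col allele in standard endosperm, and 0 to 2 for the Col allele in standard embryo. Of 2227 values of uncalled members under alternatives, 250 changed sign and 36 were called. Leave-one-out fits of the interactions of tissue with set and of nucleus with tissue were not run. With 2 libraries a group, and at most 13 allele reads for DML3, small differences are not detectable at this depth.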
